A study of Rattus norvegicus with 10 samples.

Results

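The genes described here mark the choroid plexus epithelium and the motile cilia of ependymal cells, followed in the prefrontal cortex (PFC) of rats 24 h after footshock (FS) stress. They are 36 named genes, 20 of the choroid epithelium and 16 of motile cilia, and 33 of them had a probe set of their own among 17245 genes so represented on the array. They were chosen by name with earlier results of these same arrays in view, so their values describe the arrays and are no independent evidence about stress. PFC RNA came from 10 adult male Sprague–Dawley rats with no genetic modification named, 1 whole-transcript array per rat. The 5 FS rats, labelled Stress, had received a 40 min session at 0.8 mA with 20 min of actual shock and were killed 24 h after it began. The 5 controls, labelled Control, were left undisturbed in their home cages. The whole PFC was taken, without separation of its subregions or cells, so more cells of a type and more RNA per cell cannot be told apart. Nothing in the labels ties replicate numbers to litters or days.

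The choroid plexus is a folded epithelium that hangs into the brain ventricles and secretes cerebrospinal fluid, using apical ion transporters, water channels and tight junctions. Its cells also release carrier proteins and growth factor antagonists into that fluid. Ependymal cells line the ventricle walls and move the fluid with motile cilia, whose beat depends on outer dynein arms, radial spokes and a central pair of microtubules. Neither cell type belongs to cortical tissue proper.

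All values are deposited log2 RMA values (robust multiarray averaging), and a difference is FS rats minus controls on that scale. Array medians were 7.32 to 7.37 in controls and 7.35 to 7.37 in FS rats, and any pair of arrays correlated at 0.994 to 0.997. In limma, 18304 probe sets with 1 gene symbol and a mean above 4 were compared, for 16941 genes. The label of the tissue was matched by cortical markers on every array. The vesicular glutamate transporter Slc17a7 was at 12.15 to 12.42, and the deep-layer factor Tbr1 was at 11.14 to 11.31. Markers of striatal neurons varied between rats of both groups, with list means of -0.39 to 0.39 around each gene's median in controls and -0.45 to 0.15 in FS rats.

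The choroid epithelial genes were high in 1 rat, FS replicate 2, and the ciliary genes were not raised to a like degree in any rat. FS replicate 2 was the highest of the 10 arrays for 17 of 20 choroid genes and for 6 of 13 ciliary genes, against 9.47% of all probe sets. It stood above the other 9 arrays by more than their whole range for 15 choroid genes and 0 ciliary genes, against 0.656% of all probe sets. It was at least 1 log2 unit above the median of the other 9 for 11 choroid genes and 0 ciliary genes, against 0.202% of all probe sets. Tmem72 is in each of these choroid counts by a probe set whose choice rested on this array. The median excess over the other 9 arrays was 1.19 over the choroid genes and 0.29 over the ciliary genes. No other array topped any member by more than the range of the rest. The earlier results used to choose the genes came from these arrays, so these shares describe the choice as well as the rat.

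**Figure D1:**
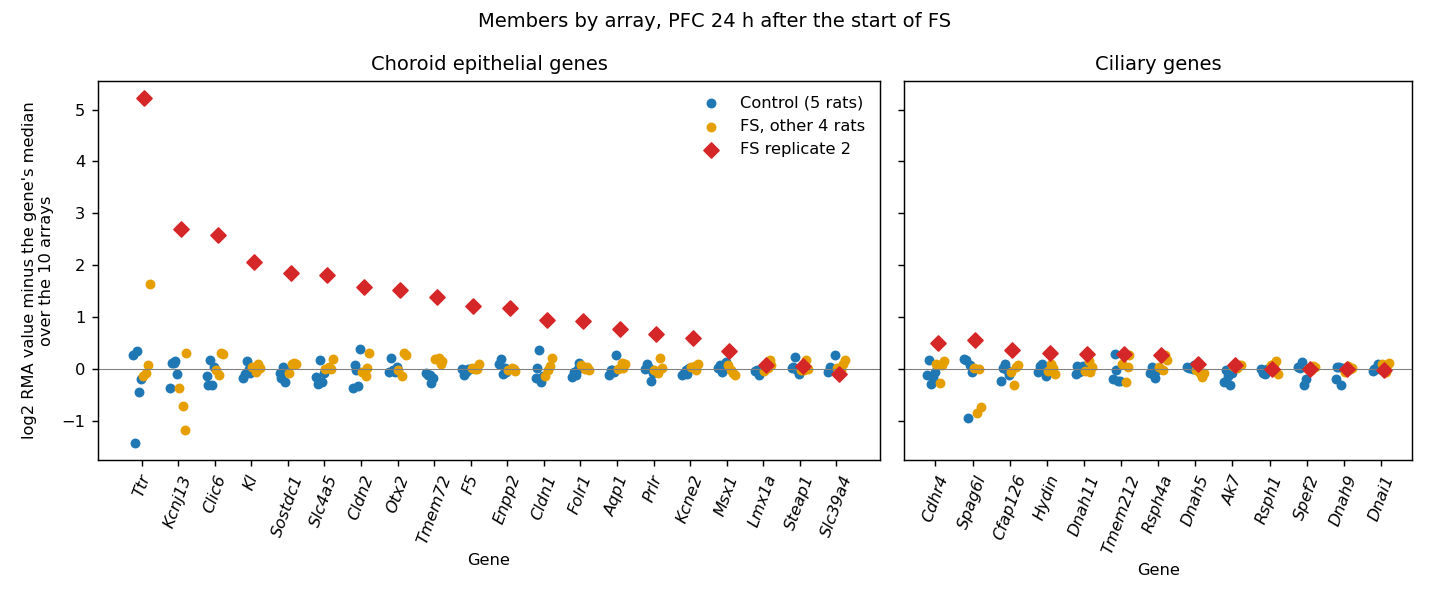
Each point is 1 rat, with the 33 members with a probe set along the horizontal axis and the log2 RMA value minus the gene's median over the 10 arrays on the vertical axis. FS replicate 2 (red) lies above the controls (blue) and the other FS rats (orange) for 17 of 20 choroid genes, and within or just above them for the ciliary genes.

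No member was called different between FS rats and controls. In limma 0 of 18304 probe sets passed an adjusted p-value of 0.05 (0%), with all 10 rats and likewise without FS replicate 2 (0%). The smallest adjusted p-value over all probe sets was 0.186. Adjusted p-values were 0.434 to 0.989 over the choroid genes and 0.350 to 0.933 over the ciliary genes. At an unadjusted p-value under 0.05, 2 choroid genes (Tmem72 and Lmx1a) and 2 ciliary genes (Rsph4a and Ak7) were higher in FS rats, where 5.75% of all probe sets were, and 0 were lower, where 4.09% were.

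The differences of the choroid genes leaned upward with all rats and shrank without FS replicate 2. Of the 20, 19 were above 0, against 50.3% of all probe sets, and the median difference was 0.247, against 0.00044 over all probe sets. Without FS replicate 2, 17 were above 0, against 51.9%, and the median was 0.070, against 0.0032. The median standard error of these genes was 0.197 with all rats, compared with 0.052 over all probe sets. For the 13 ciliary genes the median difference was 0.079 with all rats and 0.082 without FS replicate 2, with 11 and 10 of them above 0.

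**Figure D2:**
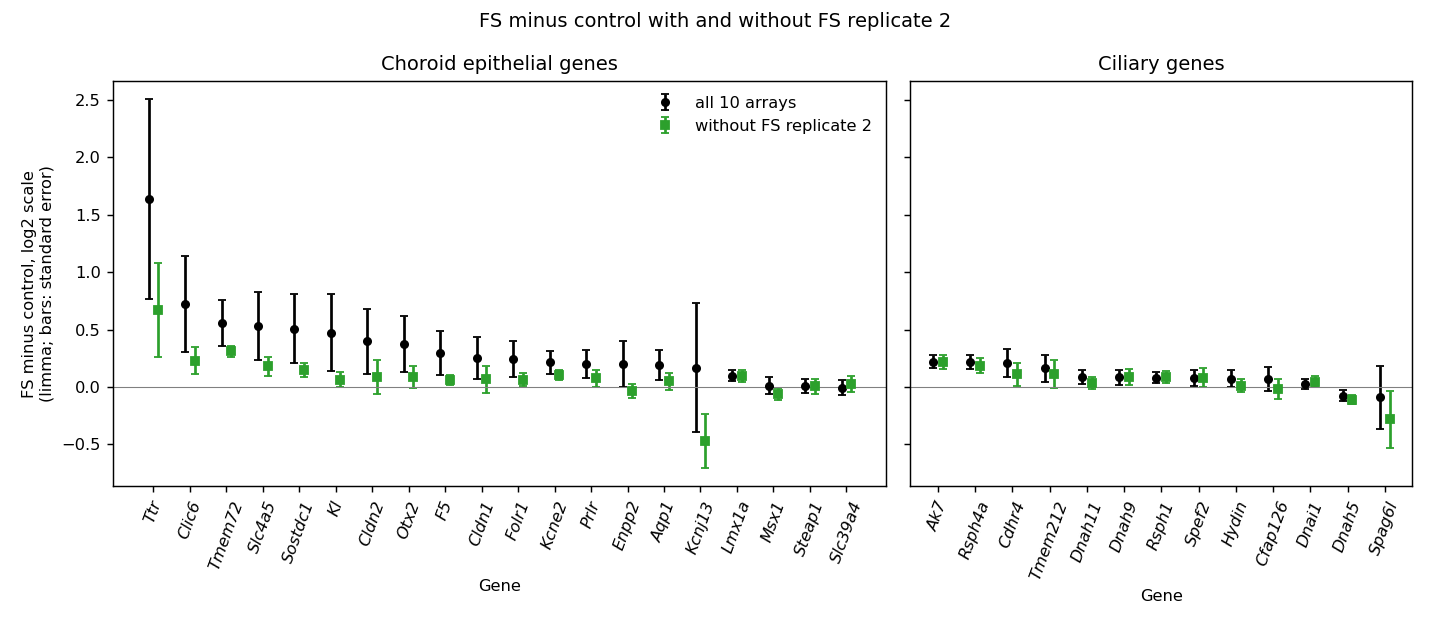
Difference of FS rats minus controls (log2) for each member with its standard error from limma, with all 10 rats and without FS replicate 2. Ttr moves from 1.64 to 0.67 and Kcnj13 from 0.17 to -0.47, and among the ciliary genes Spag6l moves from -0.091 to -0.28. Circles are the fit to all rats and squares the fit without that rat.

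The start regions of the members were read because the choroid genes moved together on 1 array. RefSeq start regions (build GRCr8, 250 bases before and 50 after each start) were at hand for 23 of the members, 12 choroid and 11 ciliary. Both strands were searched for TAATCC, a core bound by OTX2 and related homeodomain factors, for GTTGCC, the core of the site of the ciliary RFX factors, for GTAAACA, bound by forkhead factors such as FOXJ1, and for TATAAA, the TATA box. Matches are in capitals, and no matches overlapped. The windows shown are those of Ttr, the member with the greatest excess, of the channel genes Aqp1 and Kcnj13, the choroid members with a match, and of Spag6l, the ciliary member that varied most.
Ttr (chr18:12218508-12218807, plus strand): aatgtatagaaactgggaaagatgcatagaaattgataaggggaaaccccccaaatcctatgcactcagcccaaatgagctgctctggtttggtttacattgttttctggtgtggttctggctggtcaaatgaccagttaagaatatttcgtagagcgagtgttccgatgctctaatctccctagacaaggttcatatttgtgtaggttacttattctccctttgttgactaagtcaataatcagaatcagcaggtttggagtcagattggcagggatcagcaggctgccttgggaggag
Aqp1 (chr4:85812534-85812833, plus strand): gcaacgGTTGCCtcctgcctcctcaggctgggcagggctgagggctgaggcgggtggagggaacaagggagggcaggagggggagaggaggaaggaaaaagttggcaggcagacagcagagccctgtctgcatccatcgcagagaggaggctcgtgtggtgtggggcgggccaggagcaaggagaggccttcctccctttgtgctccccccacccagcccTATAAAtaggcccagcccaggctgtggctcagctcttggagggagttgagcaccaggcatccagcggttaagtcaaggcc
Kcnj13 (chr9:95518937-95519236, minus strand): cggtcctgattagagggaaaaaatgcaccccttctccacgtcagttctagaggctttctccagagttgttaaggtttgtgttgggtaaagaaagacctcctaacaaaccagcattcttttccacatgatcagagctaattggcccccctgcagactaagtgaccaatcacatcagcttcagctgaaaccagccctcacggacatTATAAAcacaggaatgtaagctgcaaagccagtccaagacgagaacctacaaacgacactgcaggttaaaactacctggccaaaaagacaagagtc
Spag6l (chr11:97677590-97677889, plus strand): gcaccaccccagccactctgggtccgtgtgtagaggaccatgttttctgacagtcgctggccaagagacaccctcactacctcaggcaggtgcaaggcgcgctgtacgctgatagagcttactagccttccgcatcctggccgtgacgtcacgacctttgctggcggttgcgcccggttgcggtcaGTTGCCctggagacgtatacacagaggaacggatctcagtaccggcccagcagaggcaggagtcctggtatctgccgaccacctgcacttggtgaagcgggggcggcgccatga
The Ttr window held 0 matches. Counted to its first base, the Aqp1 window held GTTGCC 244 bases before the start and TATAAA 30 bases before it, the Kcnj13 window held TATAAA 46 bases before the start, and the Spag6l window held GTTGCC 64 bases before it. Some genes have several starts, so the choroid genes had 13 windows and the ciliary genes 17, and matches are counted by window. TAATCC was found in 0 choroid and 0 ciliary windows, and in 7.17% of all 33469 windows. GTTGCC was found in 1 choroid window and in 5 ciliary windows, of Dnah11, Hydin, Spag6l and Spef2, and in 12.2% of all windows. GTAAACA was found in 0 choroid windows and 1 ciliary window (Spef2), and in 3.78% of all windows. TATAAA was found in 2 choroid and 4 ciliary windows, and in 14.2% of all windows. A match is a string of letters only, and no binding was measured.

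Among the secreted proteins, Ttr had the greatest excess of any gene on FS replicate 2. Ttr encodes transthyretin, the carrier of thyroid hormone and of the retinol complex that the choroid plexus releases in bulk. Its values were 7.95, 6.25, 8.02, 7.24 and 7.49 in control replicates 1 to 5, and 7.54, 12.90, 7.61, 7.76 and 9.31 in FS replicates 1 to 5. FS replicate 2 was 5.30 above the median of the other 9 rats, or 39.3-fold on the linear scale, and ranked 1 of 16941 genes by that measure. FS replicate 5 was also above every control, whereas the other FS rats lay within the controls' range. Control replicate 2 was the lowest of the 10. The group means were 7.39 ± 0.71 (SD, n = 5) for controls and 9.03 ± 2.29 (SD, n = 5) for FS rats. The difference was 1.64 (standard error 0.87, adjusted p = 0.547 in limma). A two-sided exact permutation test over the 10 rats gave p = 0.159, where 252 arrangements allow no p below 0.00794. Without FS replicate 2 the difference was 0.67 (standard error 0.41, adjusted p = 0.629 in limma).

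The other secreted and membrane-shed proteins had the same array on top, with the remaining rats close together. Sostdc1 encodes an antagonist of BMP and Wnt ligands. It was at 6.01, 5.92, 6.12, 5.84 and 6.06 in controls and at 6.001, 7.94, 6.18, 6.20 and 6.18 in FS rats. Kl encodes klotho, a membrane protein that is also shed and acts as coreceptor of a fibroblast growth factor. Kl was at 6.83, 6.92, 7.16, 6.998 and 6.94 in controls and at 7.04, 9.07, 6.95, 7.11 and 7.03 in FS rats. In both genes only FS replicate 2 stood apart, at 3.67-fold and 4.20-fold over the median of the other rats. F5, coagulation factor V, was at 6.16, 6.04, 6.11, 6.15 and 6.16 in controls and at 6.17, 7.37, 6.15, 6.16 and 6.25 in FS rats. Enpp2 encodes autotaxin, an enzyme that makes lysophosphatidic acid and that oligodendrocytes also express. Its values were 10.39, 10.49, 10.20, 10.31 and 10.23 in controls and 10.27, 11.47, 10.32, 10.30 and 10.27 in FS rats. The difference of Enpp2 was 0.20 (standard error 0.20) with all rats and -0.035 (standard error 0.058) without FS replicate 2, so its sign rested on that rat. Markers of oligodendrocytes had a list mean of 0.039 in FS replicate 2 (each gene taken from its median over the 10 arrays). For F5 the difference went from 0.30 to 0.059, for Kl from 0.47 to 0.064 and for Sostdc1 from 0.51 to 0.15, none of them past the adjusted threshold.

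The channel genes Kcnj13 and Clic6 had the greatest excesses among the members after Ttr, and the transporter gene Slc4a5 came after Kl and Sostdc1. Kcnj13 encodes the inward rectifier potassium channel Kir7.1 of the apical membrane. Its values were 6.95, 7.42, 7.43, 7.45 and 7.20 in controls and 6.94, 10.01, 6.59, 6.13 and 7.61 in FS rats. FS replicate 2 was 2.82 above the median of the other rats, yet FS replicates 3 and 4 were the lowest of the 10. Its difference was therefore 0.17 (standard error 0.56, adjusted p = 0.940 in limma) with all rats and -0.47 (standard error 0.23, adjusted p = 0.554) without FS replicate 2. Clic6, a chloride intracellular channel protein, was at 5.93, 5.76, 6.24, 5.76 and 6.10 in controls and at 6.04, 8.66, 5.95, 6.38 and 6.36 in FS rats. The excess of FS replicate 2 was 2.61, and FS replicates 4 and 5 were slightly above every control. Slc4a5, an electrogenic sodium bicarbonate cotransporter, was at 6.75, 6.61, 7.07, 6.66 and 6.83 in controls and at 6.91, 8.72, 6.94, 6.91 and 7.10 in FS rats. Without FS replicate 2 the difference of Clic6 went from 0.72 to 0.23 and that of Slc4a5 from 0.53 to 0.18.

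The remaining channel and transporter genes had smaller excesses. The water channel Aqp1 was at 7.04 to 7.42 in controls, at 7.16 to 7.28 in the other FS rats and at 7.94 in FS replicate 2. Kcne2, an accessory subunit of potassium channels, was at 6.95 to 7.09 in controls, at 7.06 to 7.17 in the other FS rats and at 7.67 in FS replicate 2. Slc39a4, a zinc importer, went the other way, as FS replicate 2 was its lowest array at 6.56 and control replicate 5 its highest at 6.93. Its difference of -0.0054 (standard error 0.069) was the only one below 0 among the choroid genes.

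Receptors and junction proteins followed the same array. Folr1, the folate receptor that carries folate into cerebrospinal fluid, was at 6.44, 6.54, 6.48, 6.60 and 6.72 in controls and at 6.67, 7.53, 6.60, 6.63 and 6.57 in FS rats. The prolactin receptor Prlr was at 5.17 to 5.49 in controls, at 5.33 to 5.61 in the other FS rats and at 6.08 in FS replicate 2. In both receptors FS replicate 2 lay above all other rats, whose groups overlapped. Cldn2, a pore-forming claudin of leaky epithelia, was at 4.70, 5.15, 5.06, 4.75 and 5.45 in controls and at 5.01, 6.66, 4.94, 5.10 and 5.39 in FS rats. Cldn1, a sealing claudin, was at 6.29, 6.48, 6.82, 6.21 and 6.32 in controls and at 6.32, 7.41, 6.45, 6.51 and 6.68 in FS rats. Both were highest in FS replicate 2, but for Cldn1 its lead over the next rat was smaller than the spread of the other 9, in which control replicate 3 was second.

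On the probe set used, Tmem72, a transmembrane protein, was the one choroid gene whose groups did not overlap. It was at 6.73, 6.70, 6.71, 6.54 and 6.65 in controls and at 7.01, 8.20, 7.03, 6.91 and 6.96 in FS rats. All 5 FS rats were above all 5 controls, which held for 0.972% of all probe sets and, among the members, for Tmem72 and the ciliary gene Ak7. The reverse held for 0 members and for 0.972% of all probe sets. The group means were 6.67 ± 0.077 (SD, n = 5) for controls and 7.22 ± 0.55 (SD, n = 5) for FS rats. The difference was 0.56 (standard error 0.20, adjusted p = 0.434 in limma) with all rats and 0.31 (standard error 0.048, adjusted p = 0.366) without FS replicate 2. By unadjusted p-value it moved from place 738 to place 2 of 18304. A further probe set of Tmem72 gave a difference of 0.10 (adjusted p = 0.579 in limma, standard error 0.060). Its excess of FS replicate 2 was only 0.17, against 1.47 on the first. On it the groups overlapped, with FS replicates 4 and 5 at 6.88, under control replicate 2 at 6.99. The probe sets therefore disagreed. Steap1, of a family of metal reductases, was at 4.48 to 4.81 in controls and 4.57 to 4.76 in FS rats, with FS replicate 2 at 4.64. Its groups overlapped throughout.

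The transcription factors that define the dorsal midline and the choroid lineage had different patterns over the rats. Otx2, a homeodomain factor needed for the choroid plexus to form, was at 5.68, 5.94, 5.71, 5.67 and 5.76 in controls and at 5.72, 7.26, 5.60, 6.04 and 6.01 in FS rats. In FS replicate 2 it was 1.54 above the others' median, or 2.91-fold. Lmx1a, a LIM homeodomain factor of the roof plate, was at 7.08, 7.10, 6.99, 7.09 and 7.13 in controls and at 7.08, 7.20, 7.14, 7.28 and 7.20 in FS rats. Here FS replicate 4 was highest and FS replicate 2 was only 0.096 above the others' median. For Lmx1a the difference was 0.099 (standard error 0.045, adjusted p = 0.505 in limma), and it was 0.094 without FS replicate 2. Msx1, a homeobox factor of the same midline, was at 6.60, 6.65, 6.52, 6.57 and 6.71 in controls and at 6.65, 6.92, 6.57, 6.51 and 6.47 in FS rats. For Msx1 FS replicate 2 was highest by less than the range of the other rats. Its difference was 0.012 with all rats and -0.063 without FS replicate 2.

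Ciliary genes were spread more evenly over the rats. Foxj1, the master regulator of motile cilia, had no probe set of that symbol, nor did Pifo and Ccdc153. The probe set named Drc12 is that of Ccdc153 under RefSeq's newer name. Drc12 was at 7.28 to 7.73 in controls and 7.52 to 7.69 in FS rats, with a difference of 0.081 (standard error 0.071, adjusted p = 0.729 in limma). It is outside the counts. Spag6l, a protein of the central apparatus, was the ciliary member with the widest range. It was at 8.21, 8.20, 7.08, 8.09 and 7.96 in controls and at 8.04, 8.58, 7.17, 8.01 and 7.28 in FS rats. Control replicate 3 and FS replicates 3 and 5 were low while FS replicate 2 was highest, and the groups overlapped, with a difference of -0.091 (standard error 0.27, adjusted p = 0.933 in limma).

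The greatest differences among the ciliary genes were those of Ak7 and Rsph4a. Ak7, an adenylate kinase of motile cilia, was at 6.14, 6.39, 6.26, 6.10 and 6.33 in controls and at 6.46, 6.47, 6.43, 6.49 and 6.48 in FS rats. The group means were 6.25 ± 0.12 (SD, n = 5) for controls and 6.47 ± 0.025 (SD, n = 5) for FS rats. All FS rats were above all controls and FS replicate 2 was not the highest of them. The difference was 0.22 (standard error 0.054, adjusted p = 0.350 in limma) with all rats and 0.22 (standard error 0.060, adjusted p = 0.414) without FS replicate 2. Rsph4a, a radial spoke head protein, was at 5.99, 6.11, 5.95, 5.89 and 6.04 in controls and at 6.10, 6.34, 6.05, 6.34 and 6.24 in FS rats. FS replicates 1 and 3 lay below the highest control, and the difference was 0.22 (standard error 0.065, adjusted p = 0.371 in limma). Dnah5, a heavy chain of the outer dynein arm, was lowest after Spag6l, at 6.88 to 6.96 in controls and 6.72 to 6.98 in FS rats, a difference of -0.074 (standard error 0.046, adjusted p = 0.606 in limma).

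The other 9 ciliary genes had differences between 0.029 for Dnai1, an intermediate chain of the outer dynein arm, and 0.21 for Cdhr4, a cadherin-related protein. Between them lay the dynein heavy chains Dnah9 (0.083) and Dnah11 (0.087), the radial spoke head gene Rsph1 (0.079), and the central apparatus genes Hydin (0.073) and Spef2 (0.078). Cfap126, which positions basal bodies, was at 0.069 and Tmem212 at 0.16. Further probe sets of Cdhr4 and Dnah9 gave 0.24 and 0.065. FS replicate 2 was 0.56 above the others' median for Cdhr4 and for Spag6l, 0.38 for Cfap126 and 0.32 for Hydin and Dnah11, and was under that median for Dnah9, Dnai1 and Spef2. Without FS replicate 2, unadjusted p-values under 0.05 were found for 3 higher choroid genes (Tmem72, Sostdc1 and Kcne2) and 2 higher ciliary genes (Ak7 and Rsph4a), against 5.23% of all probe sets. On the lower side there were 0 choroid genes and 1 ciliary gene (Dnah5), against 3.93%.

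Ranked by the excess of FS replicate 2 over the median of the other rats, 7 members were among the first 10 of 16941 genes, 9 among the first 20 and 13 among the first 50. After Ttr (place 1) came Kcnj13 (3), Clic6 (4), Kl (6), Sostdc1 (7), Slc4a5 (8), Cldn2 (10), Otx2 (11), Tmem72 (13), F5 (23), Enpp2 (25), Cldn1 (38) and Folr1 (43). All 13 are choroid genes, and Tmem72 is placed by the probe set whose choice rested on FS replicate 2. The ranks carry no test, since this rat and these genes were known to stand out.

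**Figure D3:**
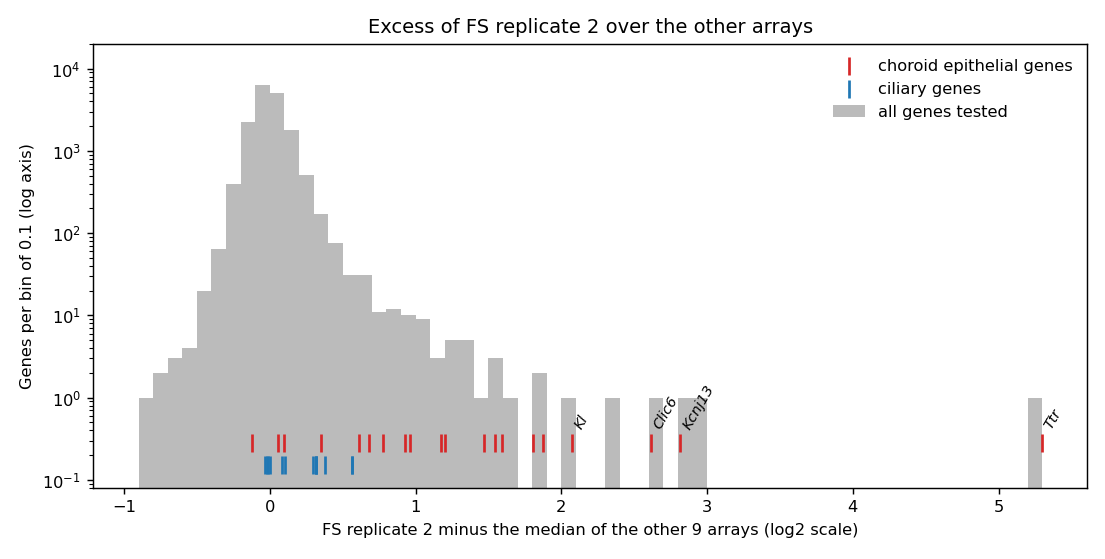
Number of genes (log axis) by the log2 value of FS replicate 2 minus the median of the other 9 arrays, for all genes tested (grey, bins of 0.1), with the members as red (choroid) and blue (ciliary) ticks. The ciliary members lie between -0.032 and 0.56, and 11 choroid members lie at 1 or more, up to Ttr at 5.30.

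Further choroid genes and other cell types on the same array were read from lists of markers. Of 34 other choroid genes, 29 were tested, and 21 of them were highest in FS replicate 2, against 9.47% of all probe sets. For 11 it was by more than the range of the other rats, against 0.656% of all probe sets, and the median excess was 0.41. The genes with the greatest excess are given first. Mfrp, a frizzled-related membrane protein, was at 9.14 there and 6.64 to 7.003 elsewhere. The growth factor Igf2, which meningeal cells also make, was at 10.29 against 7.87 to 8.83. The sugar transporter Slc2a12 was at 8.34 against 6.82 to 7.38, Cltrn (older name Tmem27) at 5.69 against 4.35 to 4.61, and the sulfate transporter Slc13a4, also expressed by meningeal cells, at 9.12 against 7.39 to 8.24. At the other end, FS replicate 2 was under the others' median for Cldn3 (-0.18) and Slc26a11 (-0.15). It was not the highest array for Slc16a8 (0.027), Col9a3 (0.028), Perp (0.049), Atp4a (0.053), Krt8 (0.065) and Wfdc2 (0.10) either. In limma 0 of the 29 passed the adjusted threshold. At an unadjusted p-value under 0.05, 3 were higher and 0 lower with all rats, against 5.75% and 4.09% of all probe sets, and 2 were higher and 4 lower without FS replicate 2, against 5.23% and 3.93%. The median difference was 0.051 with all rats and -0.011 without FS replicate 2.

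Of 91 further motile cilia genes, 72 were tested. FS replicate 2 was highest for 16 of them, against 9.47% of all probe sets, with a median excess of 0.064. The greatest excesses were those of Mns1 (0.38), Dnai3 (0.35), Cfap100 (0.32), Cfap161 (0.27) and Cfap53 (0.26), and for Dnai3 and Cfap161 a control, replicate 2, was highest. For 0 of the 72 was FS replicate 2 above the rest by more than their range, against 0.656% of all probe sets. In limma 0 passed the adjusted threshold, while 11 were higher and 2 lower at an unadjusted p-value under 0.05, against 5.75% and 4.09% of all probe sets. Without FS replicate 2 the counts were 4 and 1, against 5.23% and 3.93%, so the higher count was near that of all probe sets. The median difference was 0.046 with all rats and 0.042 without that rat.

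**Figure D4:**
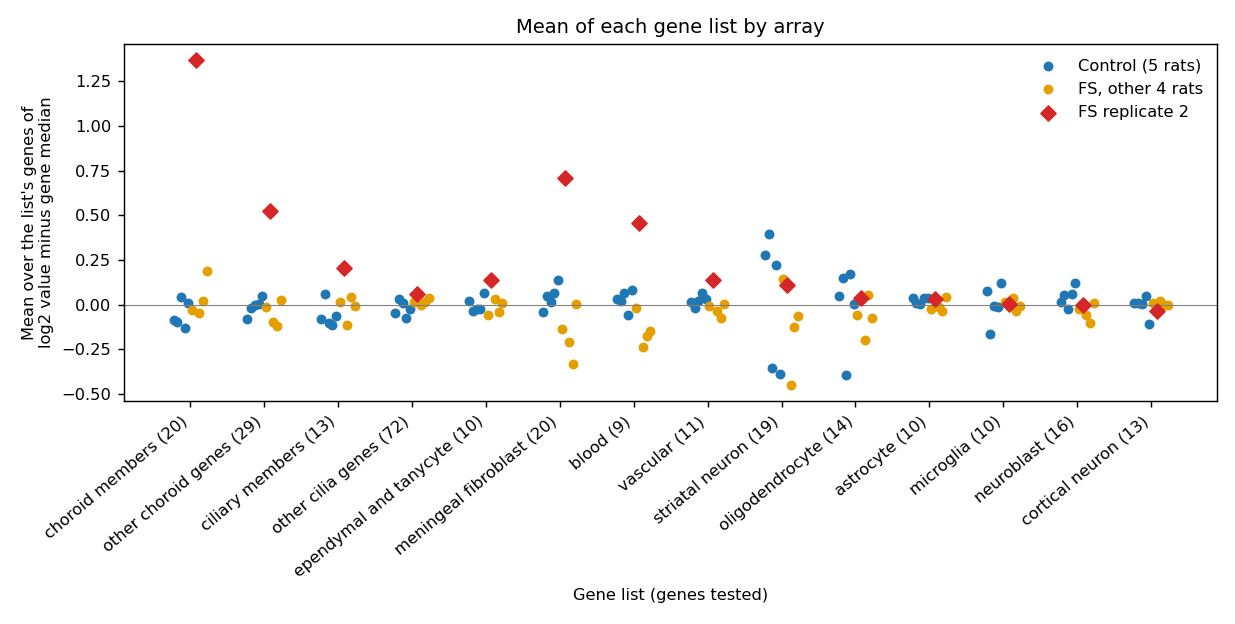
Mean over a list of each gene's log2 value minus its median over the 10 arrays, 1 point per rat, for the choroid and ciliary members and the marker lists of other cell types. FS replicate 2 is at 1.37 for the choroid members, where controls lie between -0.13 and 0.042, and at 0.20 for the ciliary members.

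Markers of meningeal fibroblasts and of red blood cells were also high in FS replicate 2. Of 20 meningeal genes tested, FS replicate 2 was highest for 19, against 9.47% of all probe sets, and by more than the range of the others for 9, against 0.656%. The list mean was 0.71 there, -0.043 to 0.14 in controls and -0.34 to 0.0023 in the other FS rats. For the other choroid genes the list mean in FS replicate 2 was 0.52. The median excess was 0.65 over the meningeal genes and 0.41 over the other choroid genes, and Igf2 is in both lists. Without FS replicate 2 the meningeal genes leaned the other way, with 17 of 20 below 0, a median difference of -0.18 and 9 lower and 0 higher at an unadjusted p-value under 0.05, against 3.93% and 5.23% of all probe sets, and 0 past the adjusted threshold in limma. Ogn, a small matrix proteoglycan, was at 11.61 there and 8.79 to 10.85 elsewhere. Of 9 blood genes FS replicate 2 was highest for 6, against 9.47% of all probe sets. The list mean was 0.46, against -0.061 to 0.080 in controls and -0.24 to -0.018 in the other FS rats, with a median excess of 0.21. The greatest excesses were in red cell genes. These were the hemoglobin genes Hbb-b1 (1.09), Hbb (1.04) and Hba-a3 (0.92), whose family holds near-identical copies, and the heme enzyme Alas2 (1.02). The red cell gene Slc4a1 had an excess of only 0.19, and the leukocyte gene Ptprc had 0.21. FS replicate 2 was the highest array for both. The leukocyte genes S100a9 (-0.075), Cd3e (-0.082) and S100a8 (-0.084) were under the others' median. The list of vascular genes was at 0.14, against -0.018 to 0.064 in controls and -0.074 to 0.0025 in the other FS rats. That of ependymal and tanycyte genes was at 0.14, against -0.037 to 0.067 and -0.059 to 0.029. FS replicate 2 was highest in both lists, and the greatest ependymal excess was that of Vim (0.77). The astrocyte (0.032), microglial (0.0031), neuroblast (-0.0040) and cortical neuron (-0.038) lists were near 0 there. The part of these cell types in the choroid values was not tested. For the choroid members the list mean was -0.13 to 0.042 in controls and -0.045 to 0.19 in the other FS rats, of which replicate 5 was highest, against 1.37 in FS replicate 2.

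Outside all lists, the 10 genes with the greatest excess on FS replicate 2 were Car3 (2.92), Fam111a (1.53), Ebag9 (1.37), Nqo2 (1.33), Pop5 (1.31), Ranbp3l (1.31), Mdk (1.26), Inmt (1.23), Cxcl13 (1.15) and C7 (1.06). They were taken as most like the choroid members by that single measure over 10 arrays. For 8 of them FS replicate 2 was the highest array, and for 4 of them (Mdk, Inmt, C7 and Ranbp3l) it was above the rest by more than their range, as for 15 choroid members. Mdk, the growth factor midkine, was at 10.22 there and 8.73 to 9.19 elsewhere. Inmt, a methyltransferase, was at 7.15 against 5.77 to 6.17, and the complement component C7 at 6.79 against 5.60 to 5.98. Car3, a cytosolic carbonic anhydrase, was at 9.74 there but also at 9.59 and 9.68 in control replicates 1 and 4 and at 9.32 in FS replicate 1, a pattern the choroid members did not have.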

How the data were processed

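The samples were PFC RNA of 10 rats, 5 controls and 5 FS rats killed at 24 h, 1 array per rat, grouped by the sample labels. Array files had been read in oligo 1.58.0 by the authors, who applied RMA, and the deposited log2 values, 1 for each probe set on each array, were used unchanged. RMA equalizes the distribution of the probes before they are summarized, and the deposited probe set values still differed slightly in their medians between arrays. The precision is limited by the number of arrays, which have no read depth.

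Gene names came from the platform annotation. Of 29214 probe sets, 18644 carry 1 symbol, 962 carry several and 9608 carry none, and 18460 of the first kind matched a RefSeq gene identifier (GRCr8). Genes with several probe sets (Tmem72, Cdhr4 and Dnah9 among the members) were read from the probe set of highest mean over the 10 arrays. That rule ignores the groups but not single arrays. For Tmem72 the mean was 6.94 for the probe set used and 6.92 for the other. FS replicate 2 was at 8.20 and 7.05 on them, and the choice rested on that array. FS rats and controls were compared with limma 3.58.1 in R 4.3.3 over 18304 probe sets with a mean above 4, which all 33 members with a probe set passed, with Benjamini–Hochberg adjustment over all of them. Medians over members carry no test.

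The members, the marker lists and the tests were chosen with earlier results of these data known. Every array value is given for members with a range of 1 log2 unit or more and for Ttr, Otx2, Lmx1a and Msx1. Alternatives changed the filter, the normalization, the array weights, the variance prior, how probe sets of 1 gene were joined and which rats entered, and the replicate number was tried as a block. The fitting function was checked beforehand on artificial data with known answers.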

Additional observations from a re-analysis of the deposited data

Results flagged for a closer look

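The values of each member within each group of 5 rats, and the list means, made 70 groups. In 16 of them the highest or lowest rat lay far from the rest by Dixon's criterion. Chance alone meets that criterion in about 1 in 20 groups of independent values. These groups share the same 10 arrays, and the members were chosen with earlier results of these arrays known. The count of 16 therefore cannot be set against that rate. Of the 16, 13 were FS replicate 2 as the highest FS rat. They were Clic6 at 8.66, Kl at 9.07, Sostdc1 at 7.94, Slc4a5 at 8.72, Otx2 at 7.26, F5 at 7.37, Enpp2 at 11.47, Folr1 at 7.53, Aqp1 at 7.94, Kcne2 at 7.67, Tmem72 at 8.20, Cldn2 at 6.66, and the mean of the choroid members at 1.37 (log2 above each gene's median over the 10 arrays). Ttr was not among them, since FS replicate 5 (9.31) lay between FS replicate 2 (12.90) and the others.

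In controls, replicate 5 stood apart as the highest for Aqp1, at 7.42, and for Slc39a4, at 6.93. Control replicate 3 stood apart as the lowest for Spag6l, at 7.08. The cause was not tested for any of these.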

How the results depend on the processing

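The counts of choroid and ciliary members past the adjusted threshold were 0 under each of the 20 alternatives run. The difference of Ttr stayed above 0 and uncalled, from 0.67 without FS replicate 2 to 2.01 with single rats left out, with adjusted p-values of 0.453 to 0.730 in limma. The median difference of the choroid members was 0.070 to 0.335 with single rats left out, the lowest without FS replicate 2, and 0.211 after quantile normalization. That of the ciliary members was 0.067 to 0.107 and 0.050. FS replicate 2 exceeded the other arrays by more than their range for 15 choroid members, or 14 with arrays centred on their medians. It was at least 1 log2 unit above the others' median for 11, or 10 with the probe sets of a gene averaged. The median excess of the choroid members was then 1.07 in place of 1.19.

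Several small differences changed sign, and the cause was not tested. With single rats left out, Enpp2 ranged from -0.035 to 0.27, Kcnj13 from -0.47 to 0.50, Spag6l from -0.30 to 0.069, Msx1 from -0.063 to 0.051, Slc39a4 from -0.040 to 0.053 and Steap1 from -0.023 to 0.058. Quantile normalization put Msx1 at -0.033 and Steap1 at -0.0060, array weights put them at -0.00026 and -0.0086 and Slc39a4 at 0.042, and centring put Slc39a4 at 0.0048.

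After the group means were removed, rats with the same replicate number correlated at 0.14, 0.064, 0.23, -0.16 and 0.082, with 2 of 5 over 0.1, and the number was therefore not treated as a pairing. With the replicate number as a block, Ttr kept its difference of 1.64 (adjusted p = 0.583 in limma), the choroid median was 0.247 and 0 members were called. With 5 arrays per group, the difference of Ttr was above its standard error of 0.87 and above the controls' SD of 0.71. It was under the FS rats' SD of 2.29 and did not pass the adjusted threshold.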
